A study of Mus musculus with 8 samples.

Results

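Class I phosphoinositide 3-kinase (PI3K) subunits and the phosphatases that act on its lipid product were followed in CT26 tumors across 4 treatment groups. The set held the catalytic subunits Pik3ca, Pik3cb, Pik3cd and Pik3cg, the regulatory subunits Pik3r1 and Pik3r5, and the phosphatases Inpp5d, Inpp4b and Inpp5j. Members were found by gene name among the mouse probes of the array, which gave 9 of 37309 gene names and 18 of 56567 probes. Of these 18 probes, 13 were bright enough in 1 group or more, with both of its arrays well above background, and were tested, at least 1 for each gene. Inpp5j was placed in the set because its rise was among the largest on these arrays, so it was chosen by its measured levels, which are a description, and no test of it is given. The other 8 were chosen by their place in the pathway with earlier results known. The counts below are over the other 8 genes, each given by its brightest tested probe.

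CT26 is a colon carcinoma line of BALB/c mice, and the tumors grew under the skin of the flank from 500000 implanted cells. The methods give female mice of 6 to 10 weeks for the animals of the study. From a tumor volume of 100 to 200 mm3, mice of the 4 groups received for 2 weeks either vehicle, TP-16 (also BY001 in the labels, a daily oral dose of 75 mg/kg), antibody to PD-1 (50 µg per mouse, injected into the peritoneum with 2 doses a week) or a combination of both agents. EP4, the prostaglandin E2 receptor that TP-16 antagonises, and PD-1, a checkpoint on T cells, were the targets. Whole tumor tissue was measured on 8 one-colour arrays, 2 per group, described by the submitters as independent biological replicates, and it was not stated whether a sample was 1 tumor or a pool. The epithelial marker Epcam was well above background on 1 of the 8 arrays and Vil1 on 0, so neither of these marked the labelled colon carcinoma here, while Krt8 was detected on all 8.

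Levels are log2 signals minus the 75th percentile of the same array, so 0 is that percentile and a difference of 1 is a fold of 2. Replicate arrays differed with an SD, over tested probes, from 0.42 in the combination to 0.68 in vehicle, and 51.4% to 59.7% of probes were well above background. Slide row moved with the antibody and slide column with TP-16, and neither can be told apart from its treatment. Before scaling, the 75th percentile of the signal was 371.1 to 414.9 on arrays without TP-16 and 530.2 to 733.6 on arrays with it. The part of this brightness in the levels was not tested. Because whole tumors were measured, more cells of a type and more RNA per cell cannot be told apart in any value that follows.

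PI3K of class I phosphorylates a membrane lipid to PIP3, which recruits the kinase AKT and other proteins to the plasma membrane. Pik3ca and Pik3cb encode the p110 alpha and p110 beta subunits found in most cells, whereas Pik3cd and Pik3cg encode p110 delta and p110 gamma, which are abundant in leukocytes and act in antigen receptor and chemokine receptor signaling. Pik3r1 encodes p85 alpha and its shorter isoforms, which hold and restrain the catalytic subunits, and Pik3r5 encodes p101, the partner that couples p110 gamma to G proteins. Inpp5d encodes SHIP1, which removes the 5-phosphate of PIP3 in blood cells, Inpp4b removes the 4-phosphate of the lipid that SHIP1 forms, and Inpp5j is another inositol 5-phosphatase.

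The stretches of 250 bases before the start sites are shown for Pik3r5, Inpp5d and Pik3cd, the 3 tested genes with the largest differences in the combination, and for Pik3ca, the member without a rise. They come from a table of RefSeq start sites (GRCm38.p6) that held 8 of the 9 genes, and the outermost of the 3 sites of Pik3cd was used. Positions are chr11:68431875-68432124 (plus strand) for Pik3r5, chr1:87620062-87620311 (plus strand) for Inpp5d, chr4:149698709-149698958 (minus strand) for Pik3cd and chr3:32396815-32397064 (plus strand) for Pik3ca. Capitals mark GGGCGG, the GC box, and GAGGAA, a core of PU.1 and ETS sites, on either strand.
Pik3r5: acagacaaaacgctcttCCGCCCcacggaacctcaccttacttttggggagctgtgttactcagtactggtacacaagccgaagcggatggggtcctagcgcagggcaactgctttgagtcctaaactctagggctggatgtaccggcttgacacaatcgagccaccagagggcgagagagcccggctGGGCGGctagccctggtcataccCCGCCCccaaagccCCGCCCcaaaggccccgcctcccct
Inpp5d: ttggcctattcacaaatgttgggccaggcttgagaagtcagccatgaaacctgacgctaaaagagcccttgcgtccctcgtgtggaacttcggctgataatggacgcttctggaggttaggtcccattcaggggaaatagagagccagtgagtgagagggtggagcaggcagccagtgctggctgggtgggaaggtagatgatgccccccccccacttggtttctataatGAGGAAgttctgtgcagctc
Pik3cd: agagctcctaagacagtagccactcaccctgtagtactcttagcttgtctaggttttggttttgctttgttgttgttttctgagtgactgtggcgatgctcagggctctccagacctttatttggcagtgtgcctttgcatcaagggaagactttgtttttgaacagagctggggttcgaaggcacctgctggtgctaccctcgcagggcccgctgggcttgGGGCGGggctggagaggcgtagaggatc
Pik3ca: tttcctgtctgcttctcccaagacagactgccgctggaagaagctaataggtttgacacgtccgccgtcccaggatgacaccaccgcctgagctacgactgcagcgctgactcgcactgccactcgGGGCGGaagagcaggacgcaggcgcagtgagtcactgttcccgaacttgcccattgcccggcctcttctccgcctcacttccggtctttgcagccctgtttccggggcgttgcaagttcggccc

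The GC box was found 4 times before Pik3r5, once each before Pik3cd and Pik3ca, and not before Inpp5d, whose single GAGGAA lay 20 bases before the start. Over the 12 start sites of the 8 genes, the GC box was in 6 windows and in 32.7% of all 32851 windows of the same length. GAGGAA was in 3 of the 12 windows (Pik3cg, Inpp5d and Inpp4b) and in 23.3% of all windows. TGACG, the core of the cAMP response element, was in 2 of the 12, those of Inpp5d and of the inner start site of Pik3r1, and in 17.8% of all windows. The STAT motif TTCNNNGAA was in 0 of the 12 and in 7.02% of all windows, and the interferon response element in 0 of the 12 and in 2.98%. Both strands were read, and no match overlapped a match of another motif in the 12 windows. These are letter matches and not measured binding sites.

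The probes that gave the levels lie, by the mm9 annotation of the array, at chr3:32364747-32364806 (Pik3ca), chr9:98939114-98939173 (Pik3cb), chr4:149023282-149023341 (Pik3cd) and chr12:32860765-32860824 (Pik3cg). Those of the regulatory subunit Pik3r5 and the phosphatases Inpp5d and Inpp4b lie at chr11:68310906-68310963, chr1:89616958-89617017 and chr8:84648684-84648743. None was saturated on any of the 8 arrays. Whether each lies in an exon or a UTR was not analysed here, since no genome annotation of that build was used.

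Compared with vehicle, 7 of the 8 tested genes rose in the combination at an adjusted p of at most 0.05 (limma, Benjamini-Hochberg over 31912 probes). These were Pik3cb, Pik3cd, Pik3cg, Pik3r1, Pik3r5, Inpp5d and Inpp4b, with log2 differences from 0.52 to 2.05, and only Pik3ca among the 8 was not called. Over all tested probes 9.10% were called higher and 32.0% were called in either direction. Quantile normalization in place of the percentile moved the higher share of the called probes from 28.4% to 49.6%, with 12.6% of all probes higher and 12.8% lower, and the 7 genes were called under both. The median log2 difference was 0.84 over the 8 genes and -0.20 over all probes (-0.01 after quantile normalization). By the looser threshold that the methods name, a fold of 2 or more at an unadjusted p up to 0.05, limma called 3 of the 8 higher (Pik3cd, Pik3r5 and Inpp5d), against 6.12% of all probes (9.56% after quantile normalization). With the methods' t-test in place of limma the count was 1, beside 772 of all 31912 probes called higher. The count of 7 at the adjusted threshold depended on single arrays, and of the 8 fits with 1 array left out Pik3cb and Pik3cd were each called in 1, Pik3cg in 2 and Pik3r1 in 3. It was 0 without combination replicate 2, a fit in which 0 of the 31912 probes were called, 3 without either anti-PD-1 replicate, 4 without vehicle replicate 1 or without either TP-16 replicate, and 5 without vehicle replicate 2 or combination replicate 1. In the 7 of these fits that kept combination replicate 2, 18.6% to 26.9% of all probes were called and 5.05% to 7.82% were higher. Under the threshold of the methods the count without combination replicate 2 was 2.

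**Figure D1:**
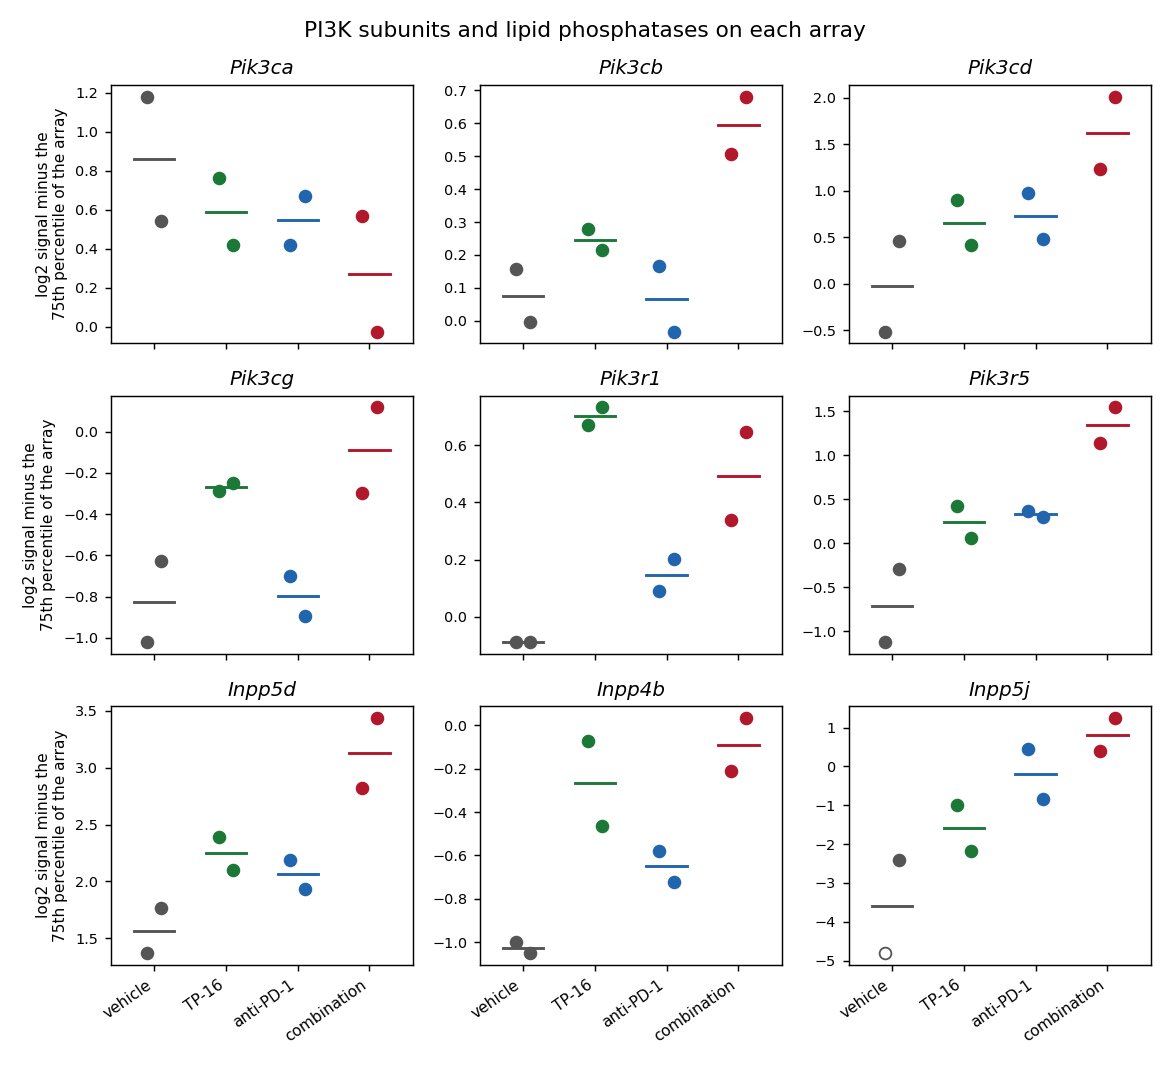
Each panel is a gene, and each point is 1 of the 8 arrays, as log2 signal minus the 75th percentile of the array, with bars at the mean of the 2 arrays of a group and an open point where the probe was not well above background. Both combination arrays lie above both vehicle arrays for every gene shown except Pik3ca, as for 23.3% of all tested probes. Inpp5j spans the widest range, from -4.81 to 1.24.

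Pik3cd, the leukocyte subunit p110 delta, stood at -0.52 and 0.46 in vehicle, 0.90 and 0.41 with TP-16, 0.97 and 0.48 with anti-PD-1 and 1.23 and 2.01 in the combination. Both combination arrays were the highest of the 8, and the single-agent arrays lay between them and the lower vehicle array. The rise in the combination was 1.65 (SE 0.43, fold 3.13, adjusted p = 0.0347, limma). A second tested Pik3cd probe rose by 1.69 (adjusted p = 0.0438), and another, well above background on 6 of the 8 arrays, differed by 1.05 (adjusted p = 0.370). The remaining Pik3cd probe was well above background on 2 arrays and was not tested.

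Pik3cg, the p110 gamma subunit, gave -1.02 and -0.63 in vehicle, -0.29 and -0.25 with TP-16, -0.70 and -0.90 with anti-PD-1 and -0.30 and 0.12 in the combination. The TP-16 and combination arrays were all above the vehicle and anti-PD-1 arrays, which overlapped each other. The difference of the combination from vehicle was 0.74 (SE 0.20, fold 1.66, adjusted p = 0.0394). With 1 array left out its adjusted p ran from 0.0416 to 0.186.

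The ubiquitous subunits differed in outcome, with Pik3cb called and Pik3ca not. Pik3cb stood at 0.16 and -0.004 in vehicle, 0.28 and 0.21 with TP-16, 0.17 and -0.03 with anti-PD-1 and 0.51 and 0.68 in the combination. It rose by 0.52 in the combination (SE 0.13, fold 1.43, adjusted p = 0.0322), the smallest of the 7 rises, and its other tested probe differed by 0.24 (adjusted p = 0.445). Pik3ca, the only catalytic subunit not called, read 1.18 and 0.54 in vehicle, 0.76 and 0.42 with TP-16, 0.42 and 0.67 with anti-PD-1, and 0.57 and -0.03 in the combination. Its groups overlapped in every comparison. The difference of the combination was -0.59 (95% interval -1.33 to 0.14, adjusted p = 0.174), which does not show that its level was alike in both groups.

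Pik3r5, the p101 partner of p110 gamma, had the largest difference of the tested genes. Its levels were -1.13 and -0.29 in vehicle, 0.43 and 0.06 with TP-16, 0.36 and 0.30 with anti-PD-1 and 1.14 and 1.54 in the combination. All 6 treated arrays were above both vehicle arrays, and both combination arrays were above all single-agent arrays. The rise was 2.05 (SE 0.31, fold 4.13, adjusted p = 0.0110). The 2 other Pik3r5 probes were well above background on 0 arrays.

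Pik3r1 had another order of groups. It stood at -0.09 and -0.09 in vehicle, 0.67 and 0.73 with TP-16, 0.09 and 0.20 with anti-PD-1 and 0.34 and 0.65 in the combination. The TP-16 arrays were the highest of the 8 and lay just above the combination arrays, and anti-PD-1 lay next to vehicle. The rise in the combination was 0.58 (SE 0.14, adjusted p = 0.0262), and TP-16 differed from vehicle by 0.79 (SE 0.14, fold 1.73, adjusted p = 0.0803, limma).

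The only Pik3r1 probe of the array lies in coding sequence of the p85 alpha gene, at the start of the N-terminal SH2 domain that the long and the short isoforms share, and so it does not tell the isoforms apart. Its 60 bases map across an intron to chr13:102459406-102460448 (mm9, minus strand) in the annotation of the array, and are shown because the TP-16 difference rests on them.
Pik3r1: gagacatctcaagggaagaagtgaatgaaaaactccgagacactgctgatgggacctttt

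Of the phosphatases, Inpp5d and Inpp4b rose in the combination. Inpp5d, which encodes SHIP1, gave 1.37 and 1.77 in vehicle, 2.39 and 2.10 with TP-16, 2.19 and 1.94 with anti-PD-1 and 2.82 and 3.43 in the combination. As with Pik3r5, the 6 treated arrays were above both vehicle arrays and the combination arrays were above all others. Its difference in the combination was 1.56 (SE 0.26, fold 2.94, adjusted p = 0.0124).

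Inpp4b stood at -1.0 and -1.05 in vehicle, -0.07 and -0.47 with TP-16, -0.58 and -0.72 with anti-PD-1 and -0.21 and 0.03 in the combination. The TP-16 and combination arrays overlapped, and anti-PD-1 lay between them and vehicle. The combination differed by 0.94 (SE 0.17, fold 1.91, adjusted p = 0.0149), and a second probe in the same gene differed by the same 0.94 (adjusted p = 0.0298), while its remaining probe was well above background on 0 arrays. Pik3r5, Inpp5d and Inpp4b were called in the combination without each single array in turn, except combination replicate 2, where the adjusted p was 0.0741, 0.0714 and 0.0937.

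**Figure D2:**
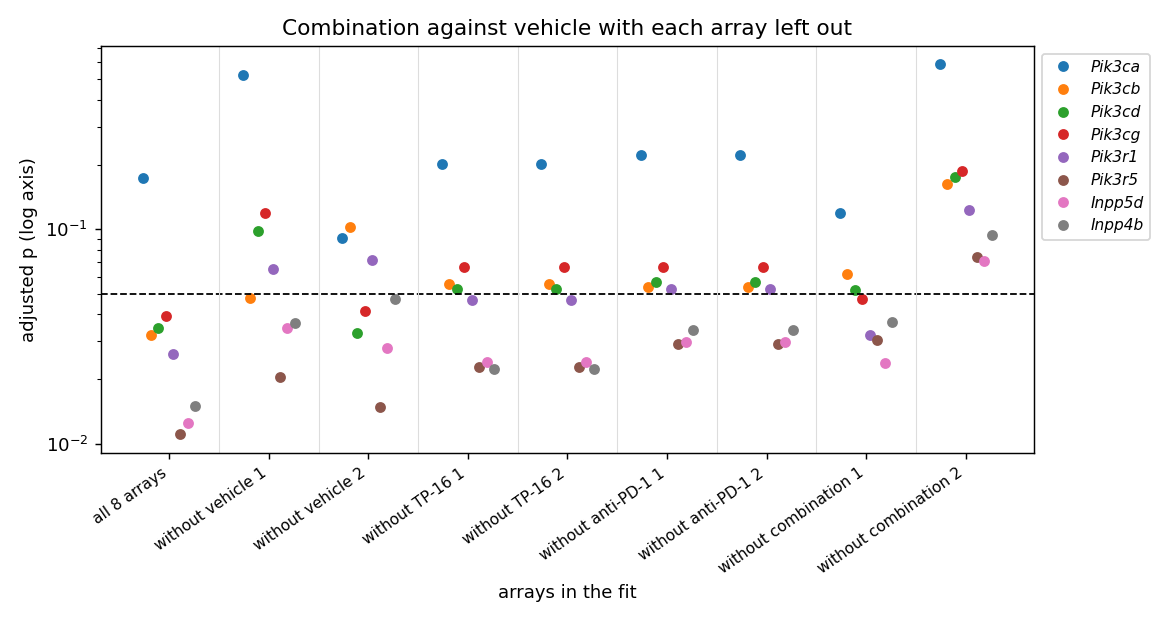
The vertical axis is the adjusted p of limma on a log scale for the combination against vehicle, for each of 8 genes, in the fit of all 8 arrays and with 1 array left out, and the dashed line is 0.05. Without combination replicate 2 all 8 genes lie above the line, and Pik3r5, Inpp5d and Inpp4b lie under it in every other fit shown.

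Inpp5j had the widest range of the 9 genes, and its values are given as a description. Its brighter probe read -4.81 and -2.40 in vehicle, -1.0 and -2.17 with TP-16, 0.44 and -0.83 with anti-PD-1 and 0.40 and 1.24 in the combination. The vehicle replicate 1 value was not well above background. Every treated array was above both vehicle arrays, the group means rose from -3.60 in vehicle through -1.58 (TP-16) and -0.19 (anti-PD-1) to 0.82 in the combination, and the combination and anti-PD-1 arrays overlapped. The difference from vehicle was 2.02 with TP-16 (fold 4.06), 3.41 with anti-PD-1 (fold 10.6) and 4.43 in the combination (fold 21.5). These differences rested in part on vehicle replicate 1, without which they were 0.82, 2.21 and 3.22, and on the background correction. With normexp, which models the local background of each spot, they were 0.70, 1.78 and 2.64, so the folds are uncertain in size.

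Inpp5j had a second, dim probe, well above background on 1 vehicle and 1 combination array only, with levels of -6.22 and -3.78 in vehicle, -5.44 and -6.37 with TP-16, -5.04 and -6.56 with anti-PD-1 and -4.71 and -3.16 in the combination. Values that are not well above background have no order, so this probe gave no measured level for either single agent. It lies at chr11:3395581-3395640 (mm9, minus strand), whereas the brighter probe lies at chr11:3394386-3394445, nearer to the end of the transcript. The target of the dim probe is shown because it could not check the levels of the brighter one.
Inpp5j: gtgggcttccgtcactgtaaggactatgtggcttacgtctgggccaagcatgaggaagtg

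With TP-16 alone, 0 of the 8 tested genes passed the adjusted threshold, as did 0.0533% of all tested probes. With any fold and unadjusted p up to 0.05, limma gave 5 of the 8 (Pik3cg, Pik3r1, Pik3r5, Inpp5d and Inpp4b) and 25.9% of all probes. None of the 5 genes reached a fold of 2, which together with that p held for 6.18% of all probes. The methods' t-test with the fold of 2 gave 0. The count by limma with that fold was 2 without vehicle replicate 2 and 1 without TP-16 replicate 2. Both TP-16 arrays were above both vehicle arrays for 6 genes, against 17.7% of all probes, and the median log2 difference was 0.68, against -0.12 over all probes. After quantile normalization the median over all probes was 0.04, 0.486% of them passed the adjusted threshold, none of the 8 genes did, and the share higher at the fold of 2 went from 1.57% to 4.47%. Apart from Pik3r1, the lowest adjusted p was that of Inpp4b (0.76, adjusted p = 0.0933). Pik3r5 differed by 0.95 (adjusted p = 0.138), Inpp5d by 0.68 (adjusted p = 0.176) and Pik3cg by 0.56 (adjusted p = 0.162).

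With anti-PD-1 alone the count at the adjusted threshold was also 0 of 8, beside 0.0721% of all probes. The fold of 2 with the unadjusted p was met by Pik3r5 (1.04, fold 2.05, adjusted p = 0.283, limma), 1 of 8 genes, and by 1.67% of all probes in the higher direction (3.40% after quantile normalization). With any fold that p was again met by this gene alone of the 8, and by 14.5% of all probes, a share near 1 in 8. The methods' t-test did not call it. The count of 1 became 0 without vehicle replicate 1 or without either anti-PD-1 replicate, and 2 without vehicle replicate 2. Levels of both arrays were above both vehicle arrays for 5 genes, against 15.0% of all probes. The median difference was 0.31, against -0.10 over all probes, and Pik3cg (0.03, 95% interval -0.47 to 0.52) and Pik3cb (-0.01, 95% interval -0.33 to 0.31) lay closest to 0.

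**Figure D3:**
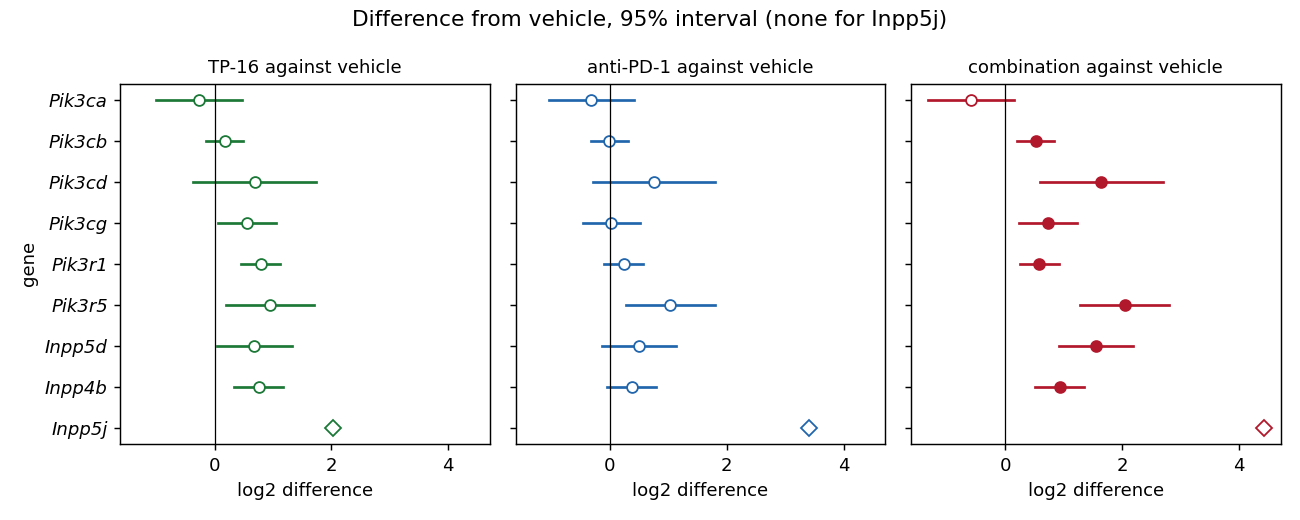
Points are log2 differences of the group means from vehicle, bars are 95% intervals of the limma fit, filled points passed an adjusted p of 0.05, and Inpp5j is drawn as a diamond with no interval. The 7 filled points are all in the combination panel, and Pik3ca lies left of 0 in all 3 panels.

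The combination was also set against each single agent. Against TP-16, 0 of the 8 genes and 0 of all 31912 probes passed the adjusted threshold, and 3 of the 8 (Pik3cb, Pik3r5 and Inpp5d) and 22.3% of all probes had an unadjusted p of at most 0.05. Pik3r5 was the only one with a fold of 2 as well (1.1, fold 2.14, adjusted p = 0.146, limma), which 3.52% of all probes met in the higher direction. This count was 0 without TP-16 replicate 2 or combination replicate 2, 2 without TP-16 replicate 1 and 3 without combination replicate 1. Both combination arrays lay above both TP-16 arrays for 4 genes (22.5% of all probes) and below them for Pik3r1 (36.8% of all probes), with a difference of -0.21 (95% interval -0.54 to 0.12, adjusted p = 0.409). Pik3cg (0.18) and Inpp4b (0.18) overlapped between these groups.

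Against anti-PD-1, 0 of the 8 genes and 0.0157% of all probes passed the adjusted threshold, while 6 of the 8 and 26.2% of all probes had an unadjusted p of at most 0.05. A fold of 2 with that p was met by Inpp5d (1.06, fold 2.09, adjusted p = 0.0864, limma) and Pik3r5 (1.01, fold 2.01, adjusted p = 0.123), and by 2.30% of all probes in the higher direction. The count of 2 fell to 1 without anti-PD-1 replicate 1 and to 0 without anti-PD-1 replicate 2 or combination replicate 2. For 7 genes both combination arrays were above both anti-PD-1 arrays, against 24.5% of all probes, and Pik3ca overlapped. Pik3cg was higher by 0.71 (adjusted p = 0.108) and Pik3cb by 0.53 (adjusted p = 0.0892).

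The departure from additivity, the combination minus both single agents plus vehicle, passed the adjusted threshold for 0 of the 8 genes and 0 of all probes, and an unadjusted p of at most 0.05 was met by 0 of the 8 and 7.32% of all probes. The departures ran from -0.45 in Pik3r1 to 0.38 in Inpp5d on the log2 scale, with adjusted p from 0.701 to 0.999 (limma). The 95% interval for Pik3r5, -1.01 to 1.13, still held departures of a fold of 2 in either direction.

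The rest of the pathway was read from 6 lists of 80 other genes, of which 76 were tested. In the combination 22 of these 76 were called higher and 5 lower at the adjusted threshold, where 9.10% and 22.9% of all probes were. After quantile normalization the counts were 26 and 2, beside 12.6% and 12.8% of all probes, so the lower calls moved with the scaling. Without combination replicate 2 none of the 76 was called, nor was any of the cell type markers. In the other fits with 1 array left out 14 to 19 were higher, the lowest without vehicle replicate 1, and 0 to 3 were lower. With TP-16 alone and with anti-PD-1 alone 0 of the 76 were called.

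Among the other regulatory and adaptor proteins of class I PI3K, 2 of 5 were called, both higher, beside 9.10% of all probes called higher. Pik3r6, the p84 partner of p110 gamma, stood at 0.66 and 1.17 in vehicle and 1.61 and 1.97 in the combination, a rise of 0.87 (SE 0.22, adjusted p = 0.0329). Pik3ip1, a membrane protein that restrains PI3K, went from -2.34 and -1.96 to -0.54 and -0.26, a rise of 1.75 (SE 0.27, adjusted p = 0.0114). For each of these genes the combination arrays lay above the vehicle arrays, as for 23.3% of all tested probes. Of the class II and III kinases, 1 of 3 tested was called, Pik3r4, a subunit of the class III complex (0.54, adjusted p = 0.0140). The list median was 0.46 for the class I partners and 0.36 for classes II and III. That of the class I partners rested on single arrays and ran from 0.33 to 1.13 with 1 array left out, the highest without vehicle replicate 2, and was 0.94 without combination replicate 1 and 0.78 after quantile normalization. Apart from the fit without vehicle replicate 2, at most 1 of these 5 genes was called with an array left out.

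Of the other phosphoinositide phosphatases, 16 were tested, 2 were higher and 1 lower, and the list median was 0.11. The share of higher genes is near the 9.10% of all probes and the share of lower genes is under the 22.9%. After quantile normalization 4 of the 16 were higher and 1 lower, beside 12.6% and 12.8% of all probes. Inpp4a, the paralog of Inpp4b, rose by 0.87 (SE 0.14, adjusted p = 0.0114), and the synaptojanin Synj1 by 0.93 (SE 0.19, adjusted p = 0.0182). Mtmr2, a 3-phosphatase of the myotubularin family, fell by 0.43 (SE 0.10, adjusted p = 0.0256). For Inppl1, which encodes SHIP2, the difference was -0.07 (SE 0.12, adjusted p = 0.671).

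In the AKT and mTOR core, 2 of 21 genes were called higher and 3 lower, and the list median was -0.11, near the -0.20 of all probes. The higher share is near the 9.10% of all probes, the lower share is under their 22.9%, and after quantile normalization 0 of the 21 were lower. Phlpp1, a phosphatase that removes an activating phosphate from AKT, rose by 0.89 (SE 0.11, adjusted p = 0.0102). Mtor fell by 0.76 (SE 0.22, adjusted p = 0.0475) and Eif4ebp1, a repressor of translation that mTOR inactivates, fell by 0.75 (SE 0.22, adjusted p = 0.0454). Akt1, which encodes an AKT kinase, differed by -0.14 (SE 0.10, adjusted p = 0.346), and its paralog Akt2 fell by 0.40 (SE 0.12, adjusted p = 0.0479).

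Of the 24 PIP3-binding effectors and receptor-proximal adaptors, 10 were called higher and 1 lower, beside 9.10% and 22.9% of all probes. The list median was 0.50. Without vehicle replicate 1 the higher count was 6 and the median 0.29, and without combination replicate 2 they were 0 and 0.31. Prex1, an activator of Rac that responds to PIP3 and G proteins, rose by 2.00 (SE 0.36, adjusted p = 0.0149). Themis, a T-cell adaptor, was well above background on 0 of 2 vehicle arrays and was at least 2.67-fold higher in the combination. It is among the 10 called, but its p-value rested on vehicle values not well above background and is not given. Several of these genes are themselves made mainly in leukocytes.

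FoxO factors are inactivated by AKT. Of the list of these factors and of lymphocyte genes they drive, 5 of 7 tested genes were called higher and 0 lower. Of all probes 9.10% were called higher and 22.9% lower. The list median was 0.67, and it ran from 0.566 to 0.674 with 1 array left out. Foxo1 had mean levels of 1.04 in vehicle and 1.12 in the combination, and S1pr1 of 0.45 and 0.16. Il7r, the interleukin 7 receptor, rose by 2.24 (SE 0.33, adjusted p = 0.0109), and the chemokine receptor Ccr7, which is also on the dendritic cell list, by 1.82 (SE 0.22, adjusted p = 0.0102).

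**Figure D4:**
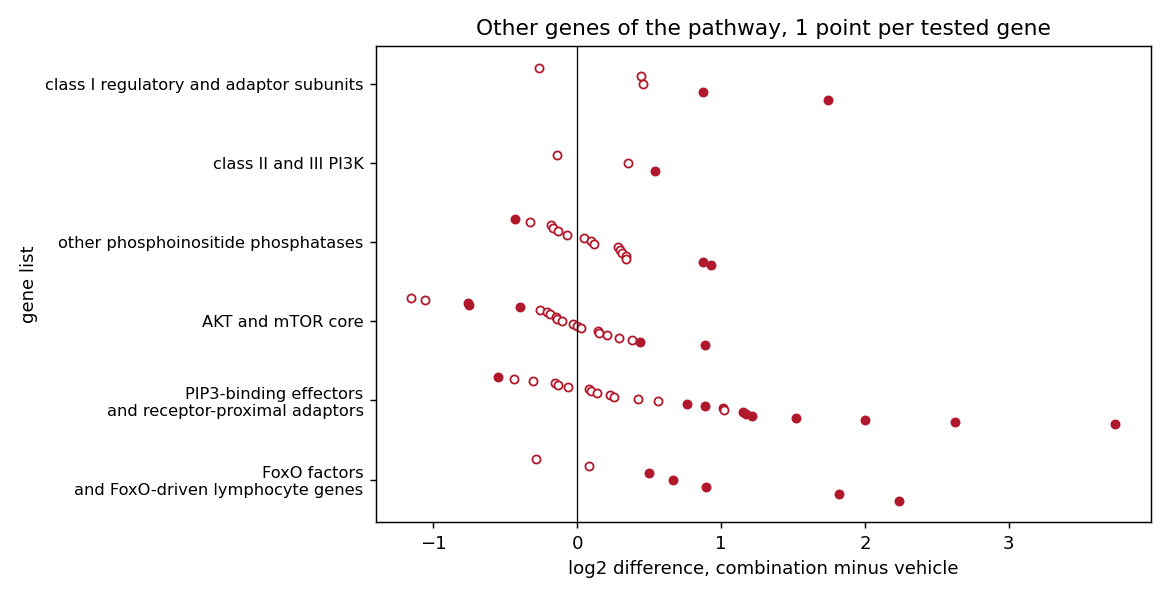
Each point is 1 tested gene of 6 pathway lists, placed by its log2 difference between combination and vehicle, and filled where the adjusted p was at most 0.05. Filled points to the right of 0 are most numerous among the PIP3-binding effectors and adaptors (10 of 24) and the FoxO list (5 of 7), and the AKT and mTOR core holds 3 filled points to the left.

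Markers of immune cells moved with the members. For 10 pan-leukocyte markers, all tested, the mean level ranged from 1.89 to 2.23 in vehicle, 2.30 to 2.56 with TP-16, 2.39 to 2.52 with anti-PD-1 and 2.88 to 3.15 in the combination, and 7 of the 10 were called higher in the combination. Ptprc, which encodes CD45, rose by 1.88 (SE 0.30, adjusted p = 0.0116), Cd3e of the T-cell receptor complex by 1.81 (SE 0.43, adjusted p = 0.0273) and Csf1r, the macrophage growth factor receptor, by 0.94 (SE 0.23, adjusted p = 0.0286). Of the T-cell list 5 of 10 genes were called higher (median 2.80), of the macrophage list 7 of 9 (median 1.03), of the dendritic cell list 6 of 7 (median 1.82), of the NK-cell list 1 of 6 (median 1.75) and of the fibroblast list 4 of 6 (median 0.63). The T-cell and NK-cell medians depended on vehicle replicate 1. The mean level of the T-cell list was -1.16 and 0.65 in the vehicle arrays and 1.70 and 2.38 in the combination, and the median difference was 1.37 without vehicle replicate 1. The count of 5 T-cell genes was 8 without vehicle replicate 2, 6 without vehicle replicate 1, 4 without either TP-16 replicate, 2 without either anti-PD-1 replicate or combination replicate 1, and 0 without combination replicate 2. For the NK-cell list the mean was -3.02 and -1.24 in vehicle, and without that array the median was 0.83 and 0 genes were called, against 5 without vehicle replicate 2. Without vehicle replicate 1 the pan-leukocyte count was 4 and the macrophage count 2. The mean level of the macrophage list ranged from 3.40 to 3.72 in vehicle and 4.30 to 4.87 in the combination. B-cell genes went the other way, with 3 of 5 tested genes lower (median -1.71), and of the epithelial list 2 of 5 tested genes were lower (median -1.39). Beside the 9.10% higher and 22.9% lower of all probes, the counts of the NK-cell, nerve and neutrophil lists were near the background. Of the neutrophil list 1 of 7 genes was called higher and 2 lower, of the nerve list 1 of 6 was higher, and none of the tested endothelial, skeletal muscle, epidermal or adipose genes was called. The mean of the tested epidermal genes differed widely within each single-agent group, at -2.28 and 3.05 with TP-16 and -1.77 and 2.89 with anti-PD-1. It was -1.99 and -0.03 in vehicle and -2.57 and -2.51 in the combination. Krt8 differed by -2.69 (SE 0.82, adjusted p = 0.0525). The part of these cell types in the levels of the members was not tested.

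Across the 8 arrays the levels of Pik3r5, Inpp5d and Pik3cd followed the mean of the leukocyte markers with Pearson correlations of 0.99, 0.98 and 0.98, given as a description since the arrays share 1 slide and their treatments. The correlation was 0.92 for Inpp5j, 0.85 for Inpp4b, 0.81 for Pik3cb, 0.80 for Pik3cg, 0.57 for Pik3r1 and -0.78 for Pik3ca. Other lists gave higher values for some members. With the dendritic cell list the correlation was 0.94 for Inpp4b, 0.93 for Pik3cg and 0.82 for Pik3r1, and with the epithelial list it was -0.96 for Inpp4b and -0.82 for Pik3r1. Pik3r1 was highest on the TP-16 arrays, where the leukocyte mean was below that of the combination arrays. Among the members the closest pairs were Pik3cd with Pik3r5 (0.97), Inpp5d with Pik3r5 (0.96) and Inpp5d with Pik3cd (0.96). Pik3cg and its partner Pik3r5 correlated at 0.78.

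**Figure D5:**
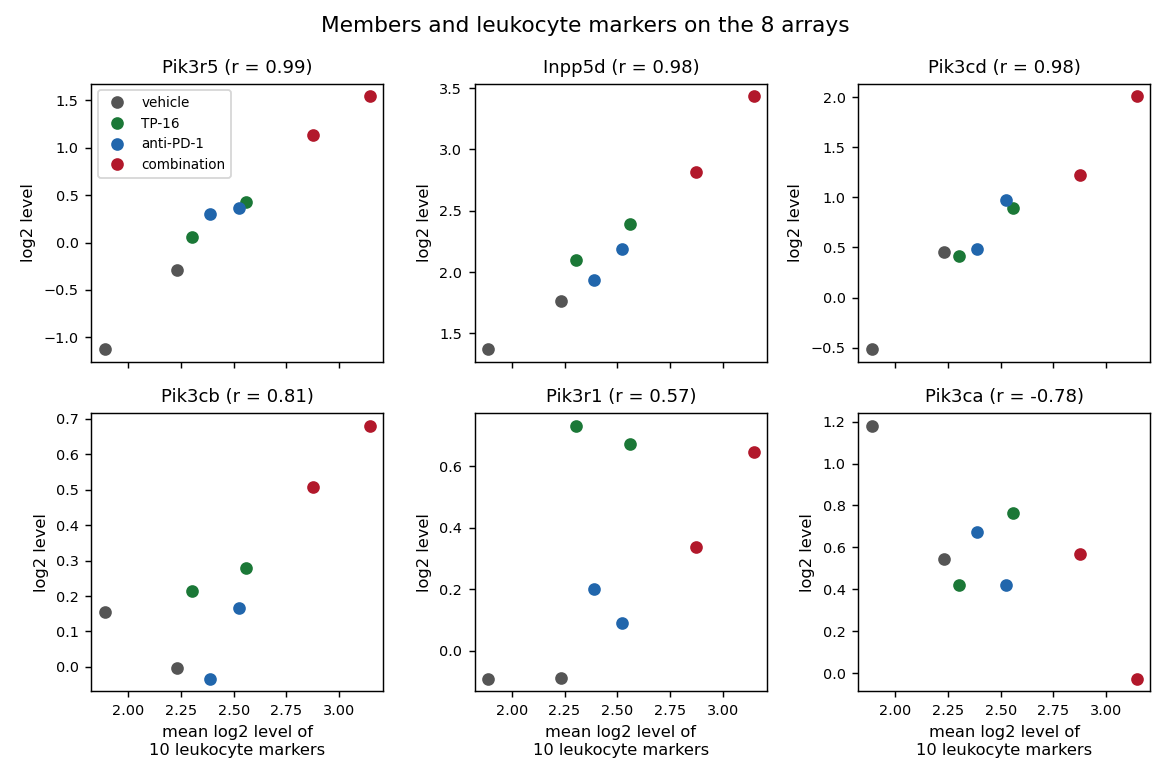
Points are the 8 arrays, with the mean log2 level of 10 leukocyte markers on the horizontal axis, the log2 level of a gene on the vertical axis and Pearson's r over the 8 arrays in the title. Pik3r5, Inpp5d and Pik3cd lie close to a line from vehicle to combination, Pik3r1 has its highest points on both TP-16 arrays, left of both combination arrays, and Pik3ca slopes downward.

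The named genes whose levels over the 8 arrays were most like those of each member were listed with their Pearson correlations. These are the highest values among all tested probes of named genes, so they are high by selection. No link between the genes was tested. For Pik3r5 these were Serpina3i (0.999), Ptger4 (0.996), which encodes EP4 itself, and Ppm1h (0.995). For Inpp5d they were Adgre1 (0.998), the macrophage antigen F4/80, Daglb (0.998) and Gimap4 (0.997), and for Pik3cd they were Sash3 (0.996), Lrmda (0.994) and Pid1 (0.994).

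Inpp5j, whose level on vehicle replicate 1 was not well above background, was most like Crem (0.993), LTO1 (0.991) and Cd274 (0.988), the gene of the PD-1 ligand PD-L1. Pik3cg was most like Ptpn7 (0.986), Itpripl1 (0.978) and the member Inpp4b (0.970), whereas Inpp4b was closest to Lpin2 (0.985), Acox3 (0.985) and St3gal1 (0.982). Pik3cb was nearest to Acad11 (0.988), Btaf1 (0.987) and Ppt1 (0.986), and Pik3ca to Akap7 (0.992), B020031M17Rik (0.982) and Olfr1513 (0.981). The lowest of the leading values was that of Pik3r1, with Chd8 (0.969), Slc25a12 (0.964) and Mitf (0.963).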

How the data were processed

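RNA of 8 whole CT26 tumor samples, 2 per group, was measured on one-colour Agilent SurePrint G3 mouse arrays. The labels gave the groups and the replicate numbers. Doses are those of the labels, since the methods place the dose brackets differently. The labels name a column kit for RNA extraction and the methods name TRIzol. The authors deposited spot intensity values that Agilent Feature Extraction 10.7.1.1 had background-subtracted, together with the other marks of that software, 0 or 1, for outlier, saturated and well-above-background spots. A second table, of log2 values, the authors deposited after they were normalized in GeneSpring by a method not given in the sources used here, and it served as an alternative. It gave nearly the same calls as quantile normalization (8114 and 8098 probes for the combination against vehicle). These 2 alternatives are therefore not separate checks.

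Control spots and spots with an outlier mark (959) were removed, which left out 38 probes, log2 values of spots of a probe were averaged, and the 75th percentile of the array was subtracted. A probe was tested where both arrays of some group were well above background (31912 of 56567). Gene names followed RefSeq (GRCm38.p6) for 32971 probes and the array annotation for the rest, and probe positions are those of the array annotation (mm9). A gene was given by the tested probe with the highest mean. All 8 arrays entered 1 fit in limma 3.58.1 (R 4.3.3), with 1 mean per group and 4 residual degrees of freedom, two-sided, with Benjamini-Hochberg adjustment over all tested probes. P-values measure the spread between these samples. The number of arrays limits the precision. The calculations were tested on simulated data. Figures were drawn with Python 3.11.15 and matplotlib 3.10.9.

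The members and the gene lists were chosen with earlier results of these data known. The text names all 9 members, the 3 genes of each pathway list with the largest difference in the combination among those called (or, where fewer than 3 were called, at the fold of 2), Inppl1, Akt1 and Akt2, the markers Ptprc, Cd3e, Csf1r, Epcam and Krt8, and the 3 likest genes of each member. Some genes that this rule names are not reported here. The alternatives were quantile normalization, normexp with an offset of 50, the authors' log2 values, other filters on dim probes, the replicate number as a block, the 2 compared groups alone, the methods' t-test, moderation with a trend and robust variances, a fold of 1.5, the dimmest tested probe of each gene and leaving out each array. For the pathway and marker lists, quantile normalization and leaving out each array were chosen after seeing the data.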

Additional observations from a re-analysis of the deposited data

How the results depend on the processing

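With 2 arrays per group, the counts over the 8 tested members moved with the fit. The 7 called in the combination against vehicle became 3 with no filter on dim probes, where 10.1% of the 56567 probes were called and 2.13% were higher, and 0 to 5 with 1 array left out. It was 0 with only the 2 compared groups in the fit and 0 with the methods' t-test, which called 0 of all 31912 probes too and so say nothing of the members in particular. With the dimmest tested probe of each gene, Pik3cb (adjusted p = 0.445, limma) and Pik3cd (adjusted p = 0.370, limma) were not called. At the fold of 2 the count of 3 became 1 with the methods' t-test, 5 at a fold of 1.5, and 2 to 4 with 1 array left out. For TP-16 against vehicle the adjusted count of 0 became 2 with normexp (17.6% of all probes called, 2.41% higher) and 1 with trended and robust moderation (4.08% called, 0.896% higher), and was 0 to 0 with 1 array left out, and the fold count of 0 became 4 at a fold of 1.5 (0 to 2). For anti-PD-1 against vehicle the adjusted count was 0 throughout, and the fold count of 1 became 0 with normexp and 0 with the methods' t-test (0 to 2). Against TP-16 the combination's fold count of 1 became 0 with normexp, 0 with the methods' t-test and 2 at a fold of 1.5 (0 to 3). Against anti-PD-1 its adjusted count of 0 became 4 with normexp (21.5% of all probes called, 3.14% higher) and 2 with trended and robust moderation (8.57% called, 1.54% higher), and its fold count of 2 became 1 with normexp and 1 with the methods' t-test (0 to 2). At a fold of 1.5, Pik3cg also passed for the combination against anti-PD-1 (fold 1.64, unadjusted p = 0.0127, limma). The cause of these changes in count was not tested, except that the 2-group fits and those with an array left out hold fewer samples. Counts for the departure from additivity were 0 in all fits run. The methods' t-test called 0 of the 8 after Benjamini-Hochberg adjustment in every comparison it was run on.

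Differences that changed sign were all uncalled. The lowest probe gave 0.085 for Pik3cb and -0.29 for Pik3cd with anti-PD-1. With 1 array left out, Pik3ca ran from -0.59 to 0.047 with TP-16, from -0.63 to 0.003 with anti-PD-1 and from -0.57 to 0.02 for the combination against anti-PD-1. In the same fits Pik3cb ran from -0.109 to 0.091 and Pik3cg from -0.17 to 0.22 with anti-PD-1, and for the combination against TP-16 Pik3cg ran from -0.027 to 0.387 and Inpp4b from -0.019 to 0.377.

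Replicate numbers were not taken to pair the arrays, since the correlations of same-numbered deviations ran from -0.193 to 0.29 and were not above 0.1 in every pair of groups. With the replicate number as a block, 5 members were called in the combination against vehicle, beside 27.3% of all probes called and 7.38% higher. Pik3cb (adjusted p = 0.0508, limma) and Pik3cd (adjusted p = 0.052, limma) were not called. The count at the fold of 2 stayed at 3, and the counts of the other comparisons were as without the block. A slide or scan block was not run, because all 8 arrays shared 1 slide and 1 scan. Probes not well above background, such as that of Inpp5j on vehicle replicate 1, have an uncertain level.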
